A study of Mus musculus with 6 samples.

Results

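The genes described here encode the machinery that brings new secretory and membrane proteins into the endoplasmic reticulum (ER): the SEC61 channel and its partners, the translocon-associated protein (TRAP) complex, the signal peptidase complex, the signal recognition particle (SRP) with its receptor, and the oligosaccharyltransferase (OST). They were chosen by gene name from a list of 36 subunits, and all 36 were found among the 25718 genes of the deposited table. Primary hepatocytes were isolated from WT mice and from S100a16KO+/- mice, all fed alcohol, and RNA was sequenced in 3 libraries of each genotype. S100a16KO+/- mice are heterozygous for a deletion that EIIa-Cre, which is active in the early embryo, made in floxed S100a16 exons, so the allele is lost in all tissues and not only in hepatocytes. The mice were male, 8 to 10 weeks old and largely of C57BL/6 background by the study's methods, and homozygous loss was lethal. Both genotypes received the NIAAA model of chronic ethanol feeding plus a binge, so the comparison holds no mice without alcohol. The sample labels call the second genotype an S100A16 knockdown. Nothing in the sample labels says whether the 3 libraries of a genotype came from separate animals, so p-values measure the spread between these libraries.

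Hepatocytes make most plasma proteins, nearly all of which enter the ER through this machinery. SRP binds a signal sequence as it leaves the ribosome and docks at the SRP receptor, the ribosome is handed to the SEC61 channel, signal peptidase removes the signal peptide, and OST transfers a preassembled glycan to asparagine residues of the entering chain. Many of these genes are known targets of the unfolded protein response, in which ER stress sensors raise the capacity of the ER.

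S100a16 itself was measured at 7.67, 8.55 and 9.07 FPKM (fragments scaled by gene length and library size) in the WT libraries and at 3.52, 3.17 and 2.92 FPKM in the S100a16KO+/- libraries, a log2 fold change of -1.40 (SE 0.11, edgeR adjusted p = 4.14e-07). The 6 libraries held between 67658095 and 71807834 estimated counts, and how many counts a sequenced fragment is worth is not given in the sources used here (in WT replicate 1, 936 genes stood at 4 counts, 561 at 3 and 259 at 5). The 36 genes had between 182 and 17779 counts per library and all of them passed the filter on low counts, as did 15957 genes in all. Hepatocyte markers were abundant in every library, with a summed level of 50148 to 51209 FPKM in WT and 49658 to 50437 FPKM in S100a16KO+/-.

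RNA of most of the machinery was higher in the S100a16KO+/- hepatocyte samples. Of the 36 genes, 29 rose at an edgeR adjusted p under 0.05, where 11.6% of all tested genes rose, and 0 fell, where 11.2% of all tested genes fell. At an unadjusted p under 0.05, edgeR gave 31 higher and 1 lower, against 2697 higher and 2659 lower of all 15957 tested genes. The median log2 fold change was 0.46 over the 36 genes and 0.01 over all tested genes. Changes were moderate: the 29 called genes ranged from 0.24 for Dad1 to 1.26 for Srprb on the log2 scale, and 3 genes (Srprb, Ostc and Sec61a1) met the study's criterion of p under 0.05 with a fold change of at least 2, where 2.9% of all tested genes met it upward. In FPKM, the 3 S100a16KO+/- libraries lay above the 3 WT libraries for 30 of the 36 genes, against 18.7% of all tested genes. In these bulk samples, a change in the mix of cells and a change in RNA per cell cannot be told apart.

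**Figure D1:**
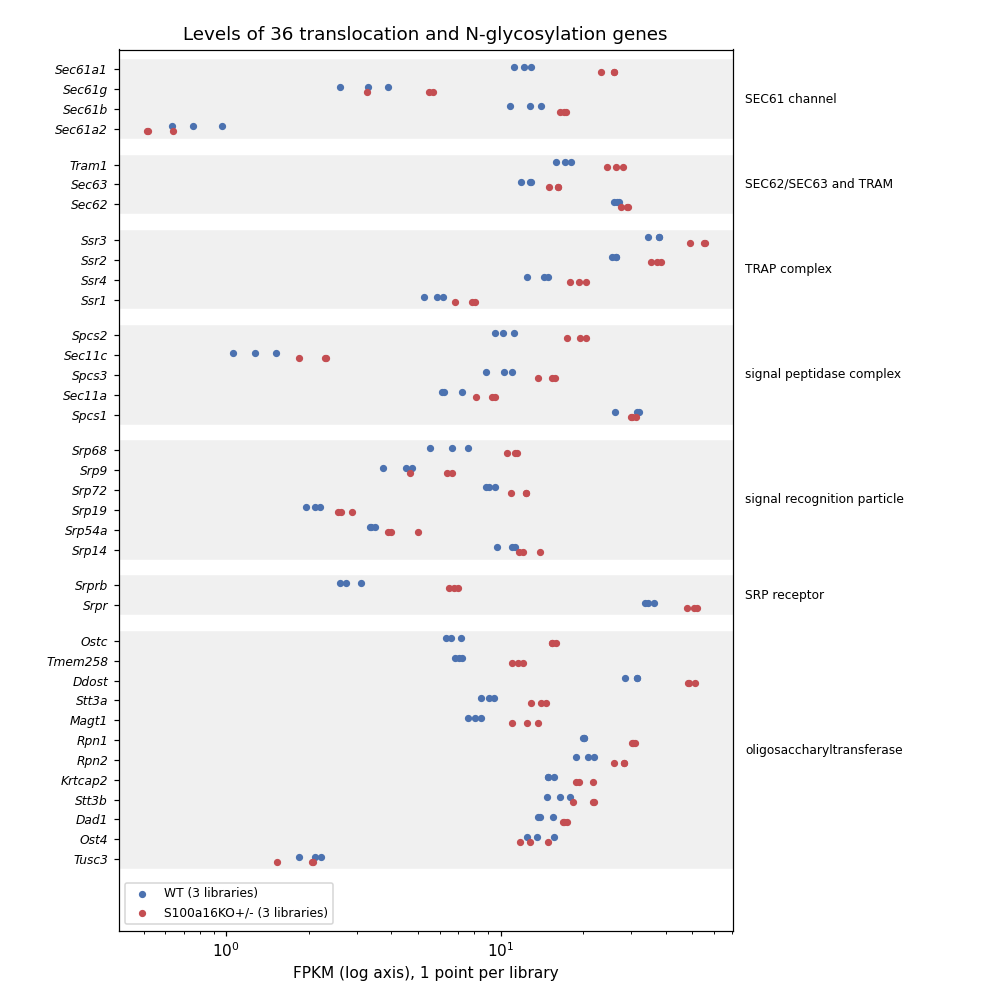
FPKM (log axis) of each of the 36 genes, grouped by complex, with 1 point per library for 3 WT (blue) and 3 S100a16KO+/- (red) libraries. The red points lie to the right of all blue points for 30 genes, while the points of Sec61a2, Sec61g, Spcs1, Srp9, Ost4 and Tusc3 overlap.

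Levels spanned a wide range. Mean WT levels ran from 0.785 FPKM for Sec61a2 to 36.7 FPKM for Ssr3, with Srpr at 34.8, Ddost at 30.4 and Spcs1 at 29.8 FPKM. The gene lengths that the FPKM values imply were 1.12 to 1.14 times the union of all annotated exons (GENCODE M21) of each gene. FPKM therefore understates the level of genes whose union is much longer than their coding transcripts. Among these were Sec11c (7.92 times the longest), Srp19 (4.14 times), Srp9 (4.05 times), Ssr4 (3.87 times) and Sec11a (3.43 times). Ratios of FPKM between different genes carry the same limit. Over the 36 genes, which share the same 6 libraries, the Spearman correlation of mean WT FPKM and log2 fold change was -0.067.

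**Figure D2:**
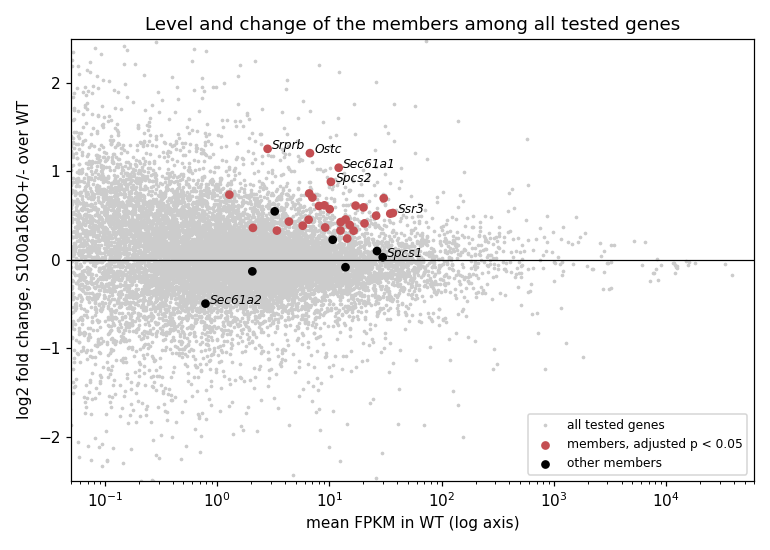
Mean WT FPKM (log axis) against the log2 fold change of S100a16KO+/- over WT for all tested genes (grey), for the 29 genes of the machinery that passed the test (red) and for the other 7 (black). Genes with changes beyond the vertical axis are not drawn. Srprb, Ostc and Sec61a1 lie above a change of 1, and Sec61a2 has both the lowest level and the lowest change of the 36.

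SRP and its receptor act first in targeting. Srprb (ENSMUSG00000032553, chromosome 9, 103188032 to 103202137, minus strand, mm10), the membrane-anchored beta subunit of the receptor, showed the largest change of the 36 genes. Srprb was at 2.59, 3.11 and 2.74 FPKM in the WT libraries and at 6.76, 6.48 and 6.98 FPKM in the S100a16KO+/- libraries, which gave a log2 fold change of 1.26 (SE 0.08, edgeR adjusted p = 2.59e-08). Its S100a16KO+/- values were all above its WT values, with little spread within either genotype. Srpr, the alpha subunit and the GTPase that pairs with SRP, was far more abundant in FPKM and rose by 0.52 on the log2 scale (SE 0.05, edgeR adjusted p = 3.33e-06). Of the 31-base words in its transcripts, Srprb shared 21.7% with other genes, chiefly Gm20425, and Srpr shared 26.9%, chiefly with Gm6733 and Gm7593, so reads from these stretches could have come from either gene.

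Within SRP, 5 of 6 protein subunits rose, where 11.6% of all tested genes rose. Srp68, which forms a heterodimer with Srp72 on the SRP RNA, changed most, with 5.51, 6.67 and 7.59 FPKM in WT and 11.5, 10.6 and 11.2 FPKM in S100a16KO+/- (log2 fold change 0.75, SE 0.09, edgeR adjusted p = 1.80e-05). The groups did not overlap, although the WT libraries of Srp68 differed among themselves more than the S100a16KO+/- libraries did. Its partner Srp72 rose by 0.37 on the log2 scale. Srp9, which with Srp14 slows elongation of the nascent chain, rose by 0.43, and Srp19, an assembly factor of the SRP RNA core, rose by 0.36. The groups of Srp9 overlapped, with S100a16KO+/- replicate 2 at 4.68 FPKM and WT replicate 3 at 4.78 FPKM. The log2 fold change of Srp14 was 0.23 (SE 0.09), which did not pass the test (edgeR adjusted p = 0.10). Srp54a, one of the genes for the GTPase that binds the signal sequence, rose by 0.33, but 72.5% of its 31-base words are shared with other genes, chiefly Srp54b and Srp54c, so its value is uncertain. The calls of Srp9, Srp19 and Srp54a were each lost in 3 or more of 17 alternative analyses.

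The SEC61 channel showed the widest range of changes. Sec61a1 (ENSMUSG00000030082, chromosome 6, 88503579 to 88518905, minus strand, mm10) encodes the pore-forming alpha subunit. Sec61a1 was at 11.2, 12.9 and 12.2 FPKM in WT and at 25.9, 23.3 and 25.9 FPKM in S100a16KO+/-, a 2.06-fold rise (log2 fold change 1.04, SE 0.05, edgeR adjusted p = 2.86e-09) with a wide gap between the groups. Sec61b, which encodes the small beta subunit, rose by 0.43 on the log2 scale. Sec61g, which encodes the gamma subunit that clamps the pore, had a log2 fold change of 0.55 with a wide error (SE 0.18, edgeR adjusted p = 0.0545), and 1 library, S100a16KO+/- replicate 2, lay within the WT range (3.25 FPKM against 2.60 to 3.87). Without that library its log2 fold change was 0.73 and passed the test.

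Sec61a2, the second alpha subunit gene, was the only one of the 36 with a negative change at an unadjusted p under 0.05. Its levels were 0.759, 0.963 and 0.635 FPKM in WT and 0.513, 0.518 and 0.640 FPKM in S100a16KO+/-, which overlapped (log2 fold change -0.50, SE 0.18, edgeR adjusted p = 0.0676). Without WT replicate 3, its lowest WT library, the log2 fold change was -0.64 and passed the test. Sec61a1 exceeded Sec61a2 by a log2 FPKM ratio of 3.94 ± 0.26 (SD, n = 3) in WT and 5.47 ± 0.16 in S100a16KO+/-, a difference of 1.53. All 3 ratios of S100a16KO+/- were above all 3 of WT, and the two-sided exact permutation test gave p = 0.1, the smallest value that 3 against 3 libraries allow (adjusted over the 4 ratios tested, 0.133).

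Partners of the channel also rose in part. Tram1, a membrane protein that lies beside the channel and meets nascent chains, was at 15.98, 18.1 and 17.2 FPKM in WT and at 28.0, 24.5 and 26.4 FPKM in S100a16KO+/- (log2 fold change 0.61, SE 0.06, edgeR adjusted p = 1.80e-06). Sec63, the J-domain protein that recruits the chaperone BiP to the channel, rose by 0.33 on the log2 scale. Its partner Sec62 had a log2 fold change of 0.10 (SE 0.05, edgeR adjusted p = 0.193). The TRAP complex, which sits at the channel and helps weak signal sequences to open it, rose as a whole: its 4 subunits Ssr1, Ssr2, Ssr3 and Ssr4 changed by 0.39, 0.50, 0.53 and 0.46 on the log2 scale, and each passed the test with groups that did not overlap. Among all tested genes, 11.6% rose by edgeR and 18.7% were higher in FPKM without overlap. Summed over the 4 subunits, TRAP was at 78.5 to 85.0 FPKM in WT and 112 to 119 FPKM in S100a16KO+/-.

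**Figure D3:**
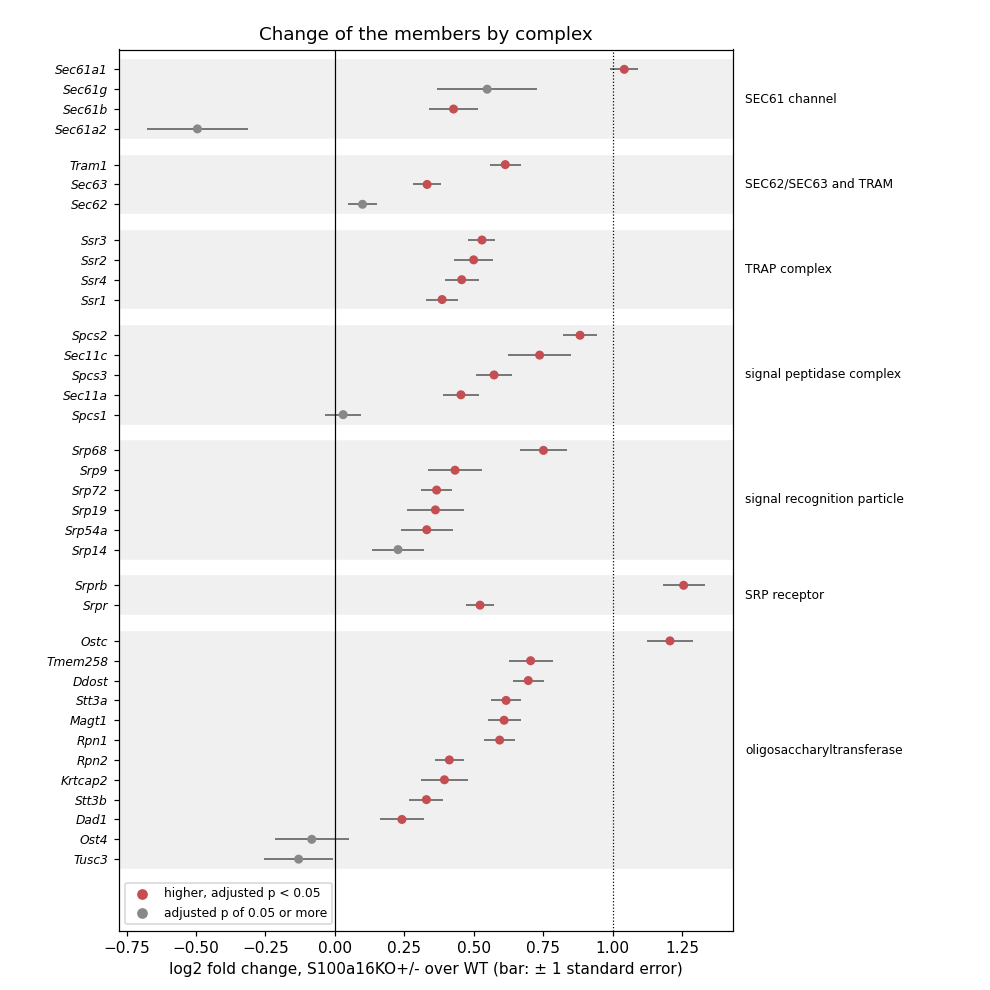
Log2 fold change of S100a16KO+/- over WT (horizontal axis, with bars of 1 standard error) for the 36 genes grouped by complex, with genes at an edgeR adjusted p under 0.05 in red and a dotted line at 1, a 2-fold rise. The TRAP subunits lie close together between 0.39 and 0.53, while the SEC61 channel runs from -0.50 to 1.04 and OST from -0.13 to 1.21.

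In the signal peptidase complex, 4 of 5 subunits rose, where 11.6% of all tested genes rose. Spcs2, an accessory subunit, changed most, from 9.53, 10.2 and 11.2 FPKM in WT to 20.5, 17.4 and 19.4 FPKM in S100a16KO+/- (log2 fold change 0.88, SE 0.06, edgeR adjusted p = 1.17e-07). Spcs3, another accessory subunit, rose by 0.57 on the log2 scale. Spcs1, a small accessory subunit and the most abundant of the complex in FPKM, had overlapping groups and a log2 fold change of 0.03 (SE 0.06, edgeR adjusted p = 0.801).

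Sec11a and Sec11c are alternative catalytic subunits of the complex. Sec11c was at 1.06, 1.27 and 1.52 FPKM in WT and at 2.31, 1.85 and 2.30 FPKM in S100a16KO+/- (log2 fold change 0.74, SE 0.11, edgeR adjusted p = 0.00026). Sec11a was at 6.13, 7.22 and 6.21 FPKM in WT and at 9.52, 8.11 and 9.32 FPKM in S100a16KO+/- (log2 fold change 0.45, SE 0.07, edgeR adjusted p = 0.000142). Both rose without overlap, and the log2 FPKM ratio of Sec11a to Sec11c was 2.35 ± 0.28 (SD, n = 3) in WT and 2.06 ± 0.06 in S100a16KO+/-. This ratio overlapped between the genotypes (difference -0.29, two-sided exact permutation p = 0.3). Sec11a overlaps Nmb and Gm45718 on the same strand, so reads of these genes cannot be fully separated.

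OST was the largest group, with 10 of 12 subunits higher, where 11.6% of all tested genes rose. The catalytic subunit occurs in alternative forms: Stt3a works at the channel, with Ostc and Krtcap2 as its accessory subunits, and Stt3b works with the oxidoreductase Magt1 or Tusc3 on sites that were skipped. Ostc (ENSMUSG00000041084, chromosome 3, 130695912 to 130709444, minus strand, mm10), which links OST to the channel, was at 7.15, 6.35 and 6.58 FPKM in WT and at 15.4, 15.9 and 15.4 FPKM in S100a16KO+/- (log2 fold change 1.21, SE 0.08, edgeR adjusted p = 8.69e-08). The 3 S100a16KO+/- values of Ostc were nearly equal and all were more than 2-fold the highest WT value. It overlaps Gm42998 on the same strand. Krtcap2 rose by 0.39 on the log2 scale.

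Stt3a was at 8.502, 9.07 and 9.46 FPKM in WT and at 14.6, 12.9 and 14.1 FPKM in S100a16KO+/- (log2 fold change 0.62, SE 0.05, edgeR adjusted p = 1.06e-06). Stt3b was at 14.8, 18.0 and 16.4 FPKM in WT and at 21.8, 18.4 and 21.99 FPKM in S100a16KO+/- (log2 fold change 0.33, SE 0.06, edgeR adjusted p = 0.00122). Both catalytic subunits rose, with a narrow gap between the groups for Stt3b. The log2 FPKM ratio of Stt3a to Stt3b was -0.86 ± 0.11 (SD, n = 3) in WT and -0.57 ± 0.07 in S100a16KO+/-, a difference of 0.29 without overlap (two-sided exact permutation p = 0.1).

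Magt1 was at 7.59, 8.502 and 8.09 FPKM in WT and at 12.5, 11.0 and 13.7 FPKM in S100a16KO+/- (log2 fold change 0.61, SE 0.06, edgeR adjusted p = 3.98e-06). Tusc3, its alternative, was at 1.84, 2.22 and 2.10 FPKM in WT and at 2.06, 1.53 and 2.08 FPKM in S100a16KO+/-, which overlapped (log2 fold change -0.13, SE 0.12, edgeR adjusted p = 0.521). The log2 FPKM ratio of Magt1 to Tusc3 was 1.97 ± 0.06 (SD, n = 3) in WT and 2.71 ± 0.13 in S100a16KO+/-, and the difference of 0.74 had no overlap between genotypes (two-sided exact permutation p = 0.1).

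**Figure D4:**
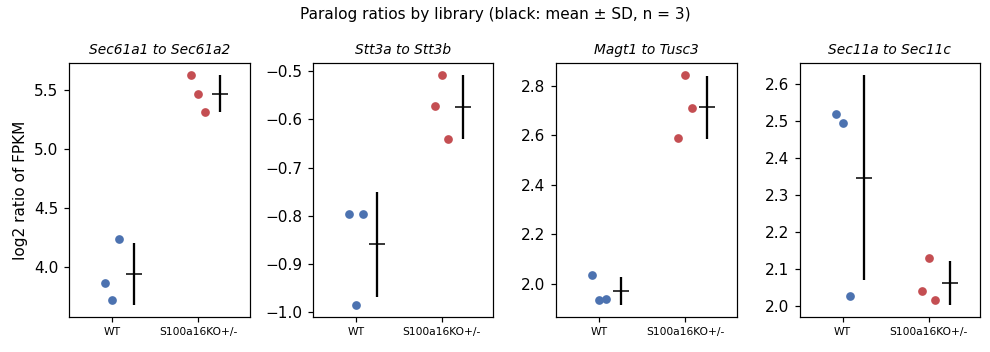
Log2 ratio of FPKM for 4 pairs of alternative subunits, with 1 point per library and the mean ± SD (n = 3) in black. Each panel has its own vertical axis. The ratios of Sec61a1 to Sec61a2, Stt3a to Stt3b and Magt1 to Tusc3 were higher in all 3 S100a16KO+/- libraries than in all 3 WT libraries, while those of Sec11a to Sec11c overlapped.

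The subunits common to both forms of OST rose with 1 exception. Ddost, the most abundant OST gene in FPKM, was at 28.4, 31.4 and 31.5 FPKM in WT and at 51.3, 48.4 and 48.8 FPKM in S100a16KO+/- (log2 fold change 0.70, SE 0.06, edgeR adjusted p = 4.55e-07). Rpn1, a ribophorin that holds substrates near the active site, was at 20.08, 20.18 and 19.98 FPKM in WT and at 30.5, 30.1 and 30.8 FPKM in S100a16KO+/- (log2 fold change 0.59, SE 0.06, edgeR adjusted p = 2.69e-06). Tmem258, a small membrane subunit, was at 6.81, 7.23 and 7.08 FPKM in WT and at 11.6, 11.0 and 12.1 FPKM in S100a16KO+/- (log2 fold change 0.71, SE 0.08, edgeR adjusted p = 1.54e-05). These 3 genes had narrow groups with clear gaps between them. Rpn2 rose by 0.41 and Dad1 by 0.24 on the log2 scale, and the call of Dad1 (edgeR adjusted p = 0.0403) was lost in 7 of 17 alternative analyses. Ost4, a very small subunit that stabilises the catalytic subunit, had overlapping groups and a log2 fold change of -0.08 (SE 0.13, edgeR adjusted p = 0.728).

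Promoters were examined for the letters known as ER stress response elements. RefSeq promoter windows (GRCm38.p6, 250 bases before to 50 after the start) were matched for 27 of the 36 genes, and Ostc, Sec11c, Sec61a1, Spcs3, Srp19, Srp68, Ssr2, Tram1 and Tusc3 had no entry. A gene was counted if any of its windows held a match. The element ERSE was searched on both strands as CCAAT, then 9 bases of any kind, then CCACG. It was held by 0 of the 27 genes, against 0.137% of all 27025 genes with a window. ERSE-II (ATTGG, 1 base, CCACG) was found in 1 of the 27 genes (3.70%), Krtcap2, and in 0.0444% of all genes. TGACGTG, the core of the element UPRE, was found in 1 of the 27 (3.70%), Srpr, a share near the 2.22% of all genes. The form with a further G was found in 0 of the 27 and in 0.714% of all genes. The short letters CCACG alone, which are part of ERSE and ERSE-II, occurred in 18 of the 27 genes (66.7%) and in 35.5% of all genes. CCAAT, also part of ERSE, occurred in 15 of the 27 (55.6%) and in 41.1% of all genes. These matches describe letters only, base composition was not matched, and no binding was measured.

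The following stretches are shown because they hold these letters, in capitals, upstream of or just after the start of a gene that rose. Rpn1 (chr6:88084353-88084472, plus strand) is shown from 120 bases before its start to the last base before it, where GENCODE M21 has no exon, and it holds CCACG at -77 and CCAAT at -6 but not in the order or at the spacing of ERSE. Srpr (chr9:35211185-35211201, plus strand) holds the UPRE core at -13 and Krtcap2 (chr3:89246485-89246505, plus strand) holds ERSE-II from base 18 after its start. These positions count from RefSeq starts, and in the deposited table both genes begin earlier, Srpr at 35200175 and Krtcap2 at 89245966. Krtcap2 has more than 1 RefSeq start, and ERSE-II was matched from only 1 of them. Hspa5 (chr2:34772020-34772048, plus strand) and Alg12 (chr15:88819515-88819543, minus strand), genes of the pathway described further on, hold a full ERSE at -65 and -220 and are shown for comparison.
Rpn1: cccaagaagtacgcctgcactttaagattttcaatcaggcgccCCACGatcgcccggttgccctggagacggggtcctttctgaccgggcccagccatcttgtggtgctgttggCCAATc
Srpr: tggtgTGACGTGtcccg
Krtcap2: cacggATTGGACCACGgacgg
Hspa5: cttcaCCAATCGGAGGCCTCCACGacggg
Alg12: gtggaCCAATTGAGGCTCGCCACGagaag

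Other genes related to this step were counted in 10 further lists. Among all tested genes, 11.6% rose and 11.2% fell. In the BiP cycle at the channel 6 of 7 genes rose, and the list's median of 0.91 on the log2 scale was the highest of the 10. Hspa5, which encodes BiP, the chaperone that pulls chains through the channel, was at 66.1, 74.4 and 77.4 FPKM in WT and at 438, 354 and 428 FPKM in S100a16KO+/- (log2 fold change 2.47, SE 0.06, edgeR adjusted p = 1.48e-12). Hyou1, a nucleotide exchange factor of BiP, rose by 2.59 on the log2 scale (SE 0.06, edgeR adjusted p = 4.28e-13). Both changes were larger than that of any of the 36 genes, among which Srprb had the highest at 1.26. In western blots of liver from alcohol-fed mice, the study reported less BiP protein (GRP78) in S100a16KO+/- than in WT. That is protein in whole liver, while the values here are RNA in isolated hepatocytes, and the difference was not tested.

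Quality control and processing at the channel rose in part. In the UFMylation list, whose products act in attaching or removing the modifier UFM1 of ribosomes at the channel, 5 of 8 genes rose. Among them was the ligase Ufl1 (log2 fold change 0.76). Among 4 genes of the signal peptide peptidase family, H13 rose by 0.70 on the log2 scale and the others did not pass the test. H13 encodes the member that cuts signal peptides after signal peptidase has released them. In ribosome anchoring and nascent chain factors, 2 of 6 rose, Lrrc59 by 0.55 and Rrbp1 by 0.40 on the log2 scale. Enzymes that build the lipid-linked oligosaccharide, the substrate of OST, had 4 of 22 genes higher and 3 lower, shares near the 11.6% and 11.2% of all tested genes, around a median of 0.05 on the log2 scale. The leading genes Alg12 and Alg2, both mannosyltransferases, had log2 fold changes of 1.14 and 0.99.

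Alternative routes of membrane insertion were counted against the same shares of all tested genes, 11.6% higher and 11.2% lower. The multipass translocon, which works with SEC61 on proteins of many membrane spans, had 2 of 6 genes higher and 1 lower, with Ncln at 0.41 and Wdr83os at -0.41 on the log2 scale. Of the 10 genes of the ER membrane complex, an insertase of its own, 0 rose and 3 fell by edgeR, with Emc9 at -0.44 and Emc1 at -0.32. At an unadjusted p under 0.05 by edgeR, 1 was higher and 3 lower, against 2697 and 2659 of all 15957 tested genes. For tail-anchored insertion, 1 of 8 rose, a share near that of all tested genes, and this gene, Get1, rose by 0.62 on the log2 scale from a low level. The GPI transamidase, which also acts on chains newly in the ER, had 0 of 5 genes past the edgeR threshold in either direction, 0 also at an unadjusted p under 0.05, and a median of 0.14.

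Genes for the cargo of the machinery were counted as well. Of 22 secreted plasma protein genes, 13 rose, where 11.6% of all tested genes rose, around a median of 0.21 on the log2 scale. Another 3 fell, a share near the 11.2% of all tested genes that fell. Fgb, the fibrinogen beta chain, rose by 0.50 and Hpx, hemopexin, by 0.48 on the log2 scale. Their summed level was 75571 to 76855 FPKM in WT and 78708 to 79296 FPKM in S100a16KO+/-, a ratio of 1.04, where the sum over the 36 genes of the machinery went from 439, 475 and 474 FPKM to 666, 624 and 660 FPKM, a ratio of 1.40. Alb, at a mean of 33701 FPKM in WT and 32703 FPKM in S100a16KO+/-, was the largest single part of the plasma protein sums. The difference between the ratios of 1.04 and 1.40 was not tested.

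**Figure D5:**
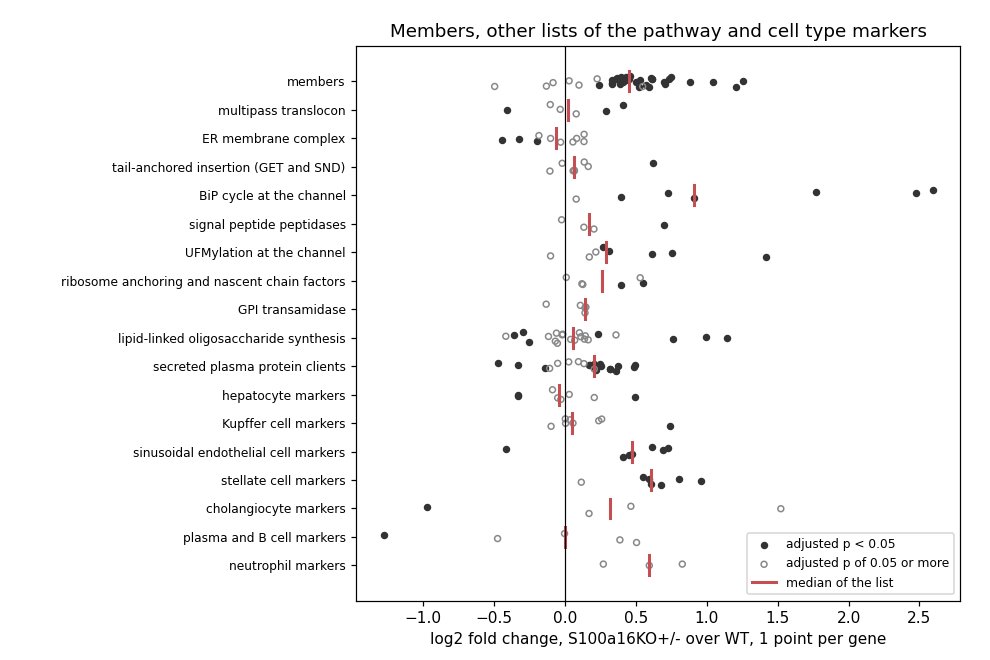
Log2 fold change of S100a16KO+/- over WT for each gene (points) of the 36 genes (members), of 10 further lists of the pathway and of cell type markers, with filled points at an edgeR adjusted p under 0.05 and the median of each list as a red line. Erythroid markers, with a median of -3.53, are left out of the plot. The medians of the 36 genes (0.46), of sinusoidal endothelial markers (0.47) and of stellate cell markers (0.61) lie close to each other, and that of the BiP cycle lies at 0.91.

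Markers of other liver cells moved with the genotype, where 11.6% of all tested genes rose and 11.2% fell. Of 7 sinusoidal endothelial markers, 6 rose and 1 (Lyve1) fell, and their sum went from 39.9 to 42.7 FPKM in WT to 58.2 to 61.4 FPKM in S100a16KO+/-, a ratio of 1.44, with Fcgr2b at 0.73 and Clec4g at 0.69 on the log2 scale. Of 7 stellate cell markers, 6 rose, and their sum went from 14.3 to 14.6 FPKM to 22.7 to 25.3 FPKM, a ratio of 1.64, with Dcn at 0.96 and Lrat at 0.81. Both ratios were above the ratio of 1.40 for the machinery, and the part of these cells in the changes of the machinery was not tested. No marker of either list was listed at 0 in any library.

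The remaining marker lists did not move alike. Of 8 hepatocyte markers, 1 rose (Fgb), a share near the 11.6% of all tested genes that rose. Another 2 fell, by 0.33 each (Ttr and Cyp2e1), where 11.2% of all tested genes fell. The ratio of hepatocyte sums was 0.983, and Alb was the largest single part of these sums. All 5 erythroid markers fell, with sums of 261 to 288 FPKM in WT and 25.2 to 26.2 FPKM in S100a16KO+/- and log2 fold changes of -3.57 for Hba-a2 and -3.54 for Hbb-bt. Of 8 Kupffer cell markers, 1 (Marco) rose, by 0.74 on the log2 scale, also a share near that of all tested genes. The Kupffer cell sum was 53.6 to 66.7 FPKM in WT and 63.1 to 69.5 FPKM in S100a16KO+/-. Cholangiocyte, plasma and B cell, and neutrophil markers had sums of at most 5.60 FPKM in any library, where Sox9 fell by 0.97 on the log2 scale. Krt19, Krt7, Mzb1 and Ngp were each listed at 0 in at least 1 library. The part of these lists in the changes of the machinery was not tested.

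Single libraries shifted the displayed levels of many genes together. In FPKM, S100a16KO+/- replicate 2 was the lowest of its genotype for 27 of the 36 genes and WT replicate 1 the lowest for 27. These libraries had TMM factors of 0.948 and 0.951, against 1.01 to 1.04 in the others, and on the TMM scale S100a16KO+/- replicate 2 was lowest for 13 genes. With both libraries left out, 30 of the 36 genes rose and 0 fell by edgeR, where 3412 of 16191 genes were called in either direction.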

How the data were processed

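Poly(A) RNA was sequenced as paired-end, strand-marked (dUTP) libraries with unique molecular identifiers. The authors deposited 1 table of estimated counts and FPKM per gene and library. The estimated counts are not scaled for library size, and the authors scaled FPKM by gene length and library size. The submitters' processing notes name cutadapt 1.9, HISAT2 2.0.4, UMI-tools, StringTie 1.3.4d, DESeq2, edgeR and mm10, and whether counting used strand is not given in the sources used here. All 14 genes of the 36 that overlap a gene on the other strand are therefore uncertain to that extent. They are Sec61a1, Sec61a2, Sec62, Sec63, Ssr2, Spcs1, Spcs2, Spcs3, Sec11a, Srpr, Rpn2, Ost4, Krtcap2 and Tmem258.

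Counts were rounded and tested with edgeR 4.0.16 (R 4.3.3, TMM, filterByExpr, robust quasi-likelihood, two-sided, no covariate), with Benjamini-Hochberg adjustment over 15957 genes. Log2 fold changes are S100a16KO+/- minus WT with the SE of the fit. FPKM values are shown as deposited. Paralog ratios used log2(FPKM + 0.01) and exact permutation over 20 assignments. The 36 genes and the further lists were chosen with earlier results of these data known. Values per library are given for the 12 called genes with the largest change, for alternative subunit pairs and, per further list, the change of at most 2 called genes with the largest change. Some genes that this rule names are not reported here. Some other genes and values (Sec61g, Srp9, Lyve1, and markers listed at 0) were named after their values were seen. Alternatives were DESeq2 1.42.0, limma 3.58.1 on log2 FPKM, other filters and scalings, counts divided by 4, a replicate block and leaving out libraries. Scripts were tested on simulated data.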

Additional observations from a re-analysis of the deposited data

How the results depend on the processing

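The number of the 36 genes that rose was 20 to 30 over all alternatives, lowest with limma on log2(FPKM + 1) without a filter. That limma fit called 1370 of 25718 genes in either direction, against 3643 of 15957 in the main fit. When 1 library was left out, 26 to 29 of the 36 rose, and 2734 to 3302 genes were called in all. The number of the 36 that fell was 0 in all alternatives except 1 without WT replicate 3 (0 to 1 over the left-out libraries), where the gene was Sec61a2. Genes upregulated by the study's criterion numbered 3, or 2 with limma on log2(FPKM + 1), where Sec61a1 had a log2 fold change just under 1 (0.99), and the median log2 fold change stayed between 0.42 and 0.49. Of the 29 called genes, 20 passed in each of the 17 alternatives, and 0 changed direction. Leaving out 1 library ended the call of Dad1 (0.26, 0.18 and 0.28 without S100a16KO+/- replicate 1, 2 and 3, and 0.18 and 0.21 without WT replicate 2 and 3), of Srp54a (0.22 without S100a16KO+/- replicate 1, 0.29 and 0.34 without WT replicate 2 and 3) and of Srp19 (0.34 without S100a16KO+/- replicate 3, 0.37 and 0.30 without WT replicate 2 and 3). The other calls were lost with limma, where Srp9 and Srp54a failed in all 3 fits. Sec61g passed the test without WT replicate 3 (0.68), without S100a16KO+/- replicate 2 (0.73) and with DESeq2 (0.54). With 1 library left out, the log2 fold change ran from -0.026 to 0.072 for Spcs1 and from -0.228 to 0.0505 for Ost4. The sign reversed for Spcs1 without WT replicate 1 and with WT replicate 1 and S100a16KO+/- replicate 2 both left out (-0.0576, chosen after seeing the data), and for Ost4 without S100a16KO+/- replicate 1 (0.00323) and without WT replicate 1. The cause was not tested.

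Libraries of the 2 genotypes share replicate numbers only. Deviations of same-numbered libraries from their group means had correlations of -0.047, -0.024 and 0.052, and not every library correlated best with its own number. With a replicate block, 29 of the 36 genes rose, the same number as without it, with Sec61g gained and Dad1 lost, a median log2 fold change of 0.46, and 3082 calls over all genes against 3643.

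Sec61a2, with 182 to 340 counts per library, was too low for the 2 limma fits that required a mean of 1 FPKM. With 3 libraries per genotype, the exact tests of ratios could not go below p = 0.1.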

Other observations

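Some of the 36 genes have close copies elsewhere in the genome. Of the distinct 31-base words of its annotated transcripts, Sec61b shared 23.5% with other genes, chiefly Gm10320, Gm33666 and Gm5870, and Sec61g shared 15.7%, chiefly with Gm10177, Gm11575 and Gm16412. With Srp54a, Srpr and Srprb, these were the 5 genes above 10%, and how the counting divided such reads is not given in the sources used here.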
